A study of Rattus norvegicus with 47 samples.

Results

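Kidneys of rats that had carried a metal pellet for 12 months were compared between aluminium (Al) and tantalum (Ta), the metal that the series' design names as inert. The comparison used the 8 libraries labelled Al and the 8 labelled Ta out of the 47 kidney RNA libraries of the series, and all genes of the count table. Each library is labelled as the kidney of a rat with a cylindrical pellet 1 mm across and 2 mm long, and the groups differ in the labels by the metal alone. The other groups carried tungsten (W, 8 libraries), cobalt (Co, 8), lead (Pb, 7) or depleted uranium (DU, 8), and Co was the metal set against Al here besides Ta. Strain, sex, age and the site of the pellet are not given in the sources used here, and no group without a pellet was analysed.

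Aluminium has no known role in the body. In blood it is carried largely by transferrin, the iron carrier, and it leaves mainly through the kidney. The kidney filters blood in glomeruli, whose filter is built by podocytes over a layer of endothelium, and recovers the filtrate in tubules, of which the proximal tubule depends most on its mitochondria. Most subunits of the respiratory chain are encoded in the nucleus, made on cytosolic ribosomes and carried into mitochondria by translocases, while a few are encoded by mitochondrial DNA. In whole tissue, fewer cells of a type and less RNA per cell cannot be told apart, and this holds for each cell type marker below.

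Total counts were 24483252 to 31360637 in Al libraries and 23259750 to 35775818 in Ta libraries. Genes with at least 1 count numbered 16515 to 17344 in Al libraries and 14981 to 16604 in Ta libraries. Mitochondrially encoded genes took 19.1% ± 1.92 of counts in Al kidneys and 19.5% ± 2.52 in Ta kidneys (SD, n = 8 each). Kidney markers fitted the labelled tissue, and podocyte, proximal tubule, thick ascending limb, principal cell and intercalated cell markers were detected in all 16 libraries. Pvalb, a distal convoluted tubule marker, was the exception with counts in 1 Al and 0 Ta libraries. All 8 markers searched of skeletal muscle (such as Acta1), liver (such as Alb) and adrenal cortex (such as Star) stayed at or below 2.16 CPM in Al libraries and 1.51 CPM in Ta libraries. CPM here are counts scaled to the library total, after correction by its TMM factor, and levels are not compared between genes, since they are not divided by gene length.

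Al kidneys differed from Ta kidneys across the table. Of 15868 genes tested, 3996 (25.2%) passed an adjusted p of 0.05 in edgeR's quasi-likelihood test, 2029 (12.8%) higher and 1967 (12.4%) lower in Al kidneys. Most of these changes were small, with a median log2 fold change of 0.48 among the higher genes and -0.53 among the lower ones, and 209 higher and 155 lower genes passed 2-fold. The median over all tested genes was -0.04. In 553 genes (3.49%) every Al library lay above every Ta library, and in 222 genes (1.4%) every Al library lay below. Higher calls outnumbered lower ones over 100 CPM (473 higher and 152 lower of 1600 genes) and under 1 CPM (89 higher and 9 lower of 2354). Lower calls were the more frequent between 10 and 100 CPM (1279 higher and 1462 lower of 7585 genes) and between 1 and 10 CPM (188 higher and 344 lower of 4329). With 1 library left out the calls numbered 3069 to 4430, and with Al replicate 6 and Ta replicates 4 and 6 omitted, which had the highest lymphocyte markers of their groups, 2260.

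The smallest p-value in the table belonged to Tomm7. This gene, a small subunit of the outer membrane translocase of mitochondria, had a lowest, median and highest level of 70.4, 92.99 and 112.4 CPM in Al kidneys, against 24.99, 30.7 and 44.2 CPM in Ta kidneys. All 8 Al kidneys were above all 8 Ta kidneys (log2 fold change 1.55 ± 0.12, adjusted p = 1.01e-12, where ± gives the standard error throughout). The next smallest p-values among higher genes belonged to Tmem256 (1.37 ± 0.11), Cox7c (1.31 ± 0.12), Cops9 (1.13 ± 0.10), Ndufa1 (1.22 ± 0.11), Sem1 (1.23 ± 0.12) and Naa38 (1.08 ± 0.10). Their adjusted p was at most 1.82e-10, and values in brackets are log2 fold changes. Cops9 encodes a small subunit of the COP9 signalosome and Sem1 a small subunit of the proteasome lid. LOC679739 was also among them (1.32 ± 0.13), with a provisional name only.

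Among lower genes the smallest p-values belonged to Tjp1 (-0.84 ± 0.12), Nup58 (-0.79 ± 0.12), Nup153 (-0.67 ± 0.11), Dync1li2 (-0.69 ± 0.11), Cast (-0.54 ± 0.09), Foxj3 (-0.90 ± 0.15), Nfatc3 (-0.86 ± 0.15) and Kat6a (-0.77 ± 0.13). Their adjusted p was at most 3.07e-05. Tjp1 encodes the tight junction scaffold ZO-1, Nup58 and Nup153 are nucleoporins, Dync1li2 is a dynein light intermediate chain, Cast encodes the calpain inhibitor calpastatin, and Kat6a is a histone acetyltransferase. Tjp1 was at 28.5, 39.5 and 58.96 CPM in Al kidneys, against 61.2, 73.1 and 80.4 CPM in Ta kidneys, with no overlap. By size among genes with no overlap, the largest increases were in Rps15al4 (1.80 ± 0.33), Rps28 (1.75 ± 0.17), Rpl38 (1.74 ± 0.19), Chchd2 (1.58 ± 0.28), Mt1m (1.57 ± 0.41), Rpl37 (1.56 ± 0.33), Rps21 (1.56 ± 0.16) and Rps18l1 (1.42 ± 0.27), besides Tomm7 and Ndufa3. Their adjusted p was at most 0.00388. Chchd2, Mt1m, Rpl37, Rps15al4 and Rps18l1 had medians of 2.11, 5.26, 2.83, 1.62 and 4.38 CPM in Al kidneys, and genes of these families have near-identical copies between which reads may have been split, so their values are uncertain. Among the largest decreases were those of Ugt2b7 (-1.68 ± 0.58), Mef2c (-1.62 ± 0.45), Pcdh18 (-1.59 ± 0.55), Ldb2 (-1.38 ± 0.39), Dpysl2 (-1.36 ± 0.32), Bnc2 (-1.35 ± 0.30), Ednrb (-1.33 ± 0.35) and Ggt5 (-1.32 ± 0.35), besides Slc22a8. Their adjusted p was at most 0.0291. Ugt2b7 glucuronidates drugs and steroids, Mef2c is a transcription factor and Ednrb the endothelin receptor B. The calls of Ugt2b7 and Pcdh18 were lost when any of 4 and 6 single libraries was left out, with adjusted p up to 0.0612 without Al replicate 5 and 0.0748 without Ta replicate 4.

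**Figure D1:**
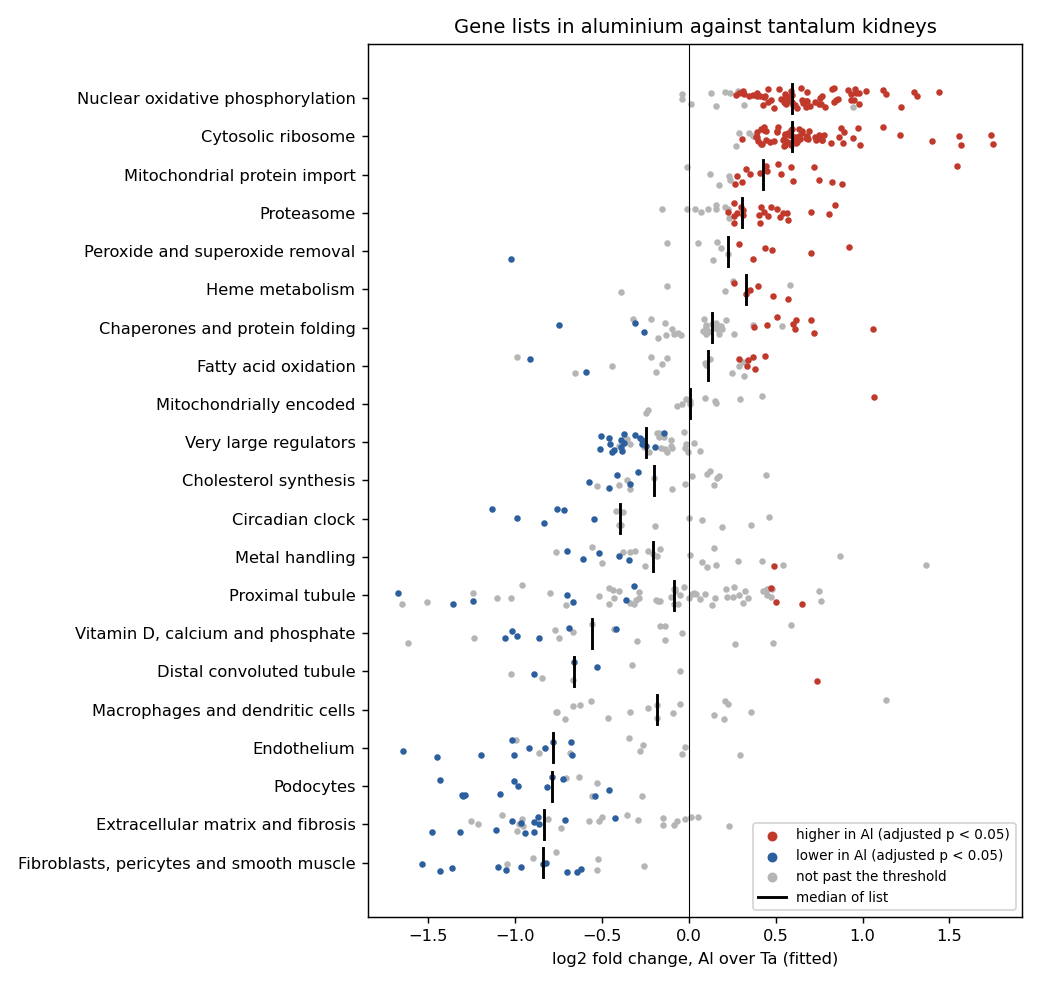
Fitted log2 fold change of Al over Ta kidneys (horizontal axis) for each tested member of 21 gene lists, coloured by call, with a bar at the list median; points are spread vertically within a list for visibility only. Respiratory chain (74 of 76), ribosome (73 of 73), import (21 of 22) and proteasome (30 of 32) members lie to the right of 0, with list medians of 0.60, 0.59, 0.43 and 0.31, and endothelium, podocyte, matrix and pericyte members lie mostly to the left, with medians of -0.78, -0.79, -0.84 and -0.84.

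Nuclear genes of oxidative phosphorylation, the machinery that makes most ATP, had members higher in Al kidneys in each of the 5 complexes. Of 76 tested members 66 rose and 0 fell, against 12.8% and 12.4% of all tested genes, with a median log2 fold change of 0.60. In 41 members every Al library lay above every Ta library, as in 3.49% of all tested genes. Complex I, which takes electrons from NADH, had 34 of 37 members higher, complex III 7 of 9, complex IV with cytochrome c 10 of 11 and ATP synthase 14 of 15. Complex II, also an enzyme of the citric acid cycle, had 1 of 4 members higher, Sdhb (log2 fold change 0.32 ± 0.10, adjusted p = 0.015), and its subunit Sdha was at 491, 695 and 783 CPM in Al kidneys, against 457, 636 and 721 CPM in Ta kidneys. Sdha had a log2 fold change of 0.13 ± 0.12 (adjusted p = 0.452), with 3 of 8 Al kidneys above every Ta kidney. Summed over the 76 members, the level was 25120 to 34098 CPM in Al kidneys and 16130 to 23260 CPM in Ta kidneys, and the mean log2 CPM of the list was above the Ta range in 8 of 8 Al kidneys.

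Cox7c, a small subunit of cytochrome c oxidase, was at 259, 349 and 434 CPM in Al kidneys, against 120.8, 145 and 176 CPM in Ta kidneys. Cox5b, another subunit of complex IV, was at 340.5, 421 and 470.2 CPM in Al kidneys, against 139.5, 185 and 223 CPM in Ta kidneys. Cox5b had a log2 fold change of 1.13 ± 0.11 (adjusted p = 4.09e-10). Ndufa1, an accessory subunit of complex I, was at 98.7, 110.9 and 140.4 CPM in Al kidneys, against 42.2, 53.2 and 56.1 CPM in Ta kidneys, and Ndufa3 at 101.8, 122.9 and 154 CPM in Al kidneys, against 38.1, 43.6 and 54.8 CPM in Ta kidneys. Ndufa3 had a log2 fold change of 1.44 ± 0.18 (adjusted p = 7.21e-08). In each of these 4 genes the lowest Al kidney lay above the highest Ta kidney. Further members with full separation were Ndufa13 (0.95 ± 0.11) and Ndufa7 (0.86 ± 0.10) of complex I and Uqcrq (0.98 ± 0.12) and Cox6a1 (0.84 ± 0.09) of complexes III and IV. ATP synthase added Atp5mc2 (0.83 ± 0.09) and Atp5me (1.30 ± 0.17), and all 6 had an adjusted p of at most 2.94e-07.

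Subunits encoded by mitochondrial DNA gave few calls. Of 13 mitochondrially encoded subunits 1 rose and 0 fell (7.69% called, against 25.2% of all tested genes). The median log2 fold change was 0.00, with a range of -0.25 to 1.07. The gene that rose was ND3, a complex I subunit, at 1503, 2355 and 2734 CPM in Al kidneys, against 862, 1037 and 1501 CPM in Ta kidneys. ND3 had a log2 fold change of 1.07 ± 0.20 (adjusted p = 8.06e-05), with no overlap between the groups. ATP6, of ATP synthase, was at 15370, 21786 and 24995 CPM in Al kidneys, against 13780, 15478 and 25194 CPM in Ta kidneys. ATP6 had a log2 fold change of 0.29 ± 0.16 (adjusted p = 0.167), with 0 of 8 Al kidneys above every Ta kidney. The difference between the nuclear and mitochondrial lists was not tested.

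Genes that bring proteins into mitochondria were higher as well. Of 22 translocase subunits 17 rose and 0 fell (77.3% called, against 25.2% of all tested genes), with a median log2 fold change of 0.43. Besides Tomm7, they included the inner membrane carriers' chaperone Timm13 (0.88 ± 0.10, adjusted p = 6.43e-09) and its partner Timm8b (0.82 ± 0.11, adjusted p = 7.42e-07). Of the 3 mitochondrial chaperones that rose, Hspe1, the co-chaperonin of HSP60, was at 237, 333 and 389 CPM in Al kidneys, against 119.1, 160.5 and 185 CPM in Ta kidneys. Hspe1 had a log2 fold change of 1.06 ± 0.15 (adjusted p = 6.77e-07), with no overlap between the groups. Grpel1, a nucleotide exchange factor of mitochondrial HSP70, had a log2 fold change of 0.60 ± 0.08 and the protease subunit Clpp one of 0.61 ± 0.11.

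Promoters are shown for 4 genes of these lists, whose members moved together, chosen because their 120 bases hold a match to the letters searched. Cox7c, Ndufa3 and Rps28 held no match in 250 bases, and Ndufa1 held one only outside the 120 bases nearest the start. RefSeq sequences of the GRCr8 build were matched by symbol for 12023 of the 15868 tested genes, and the 250 bases before each annotated start were searched on both strands for the letters CCGGAAG, a core of ETS family binding sites that occurs in many promoters of respiratory chain and ribosomal genes, and GCGCATG, one end of the palindromic site of nuclear respiratory factor 1, whose reverse complement can overlap it. The 120 bases before the start are printed 5′ to 3′ on the gene's strand, with matches in capitals, as the first of these letters in Cox5b, Uqcrq and Rpl38 and the second in Tomm7.
Cox5b, chr9:46417717-46417836, plus strand: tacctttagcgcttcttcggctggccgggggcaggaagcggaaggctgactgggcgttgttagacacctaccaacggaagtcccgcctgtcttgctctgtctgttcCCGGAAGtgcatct
Uqcrq, chr10:38089979-38090098, minus strand: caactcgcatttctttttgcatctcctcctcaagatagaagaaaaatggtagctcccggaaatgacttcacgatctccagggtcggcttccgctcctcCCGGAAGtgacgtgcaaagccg
Rpl38, chr10:100200315-100200434, plus strand: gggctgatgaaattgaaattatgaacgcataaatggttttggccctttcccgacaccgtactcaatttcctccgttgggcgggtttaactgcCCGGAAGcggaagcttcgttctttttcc
Tomm7, chr4:12197383-12197502, plus strand: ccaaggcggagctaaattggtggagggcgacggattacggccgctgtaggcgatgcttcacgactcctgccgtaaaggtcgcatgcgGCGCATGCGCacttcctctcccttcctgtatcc
CCGGAAG was found in 19 of 67 oxidative phosphorylation promoters (28.4%), in 16 of 58 ribosomal protein promoters (27.6%), in 10 of 28 proteasome promoters (35.7%) and in 6 of 21 import promoters (28.6%), against 1599 of all 12023 (13.3%). Of promoters of all genes higher in Al kidneys 22.8% held it, of those of lower genes 12.1%, and of those of the very large regulators, described below, 3.57%. GCGCATG was in 12 of 67 (17.9%) oxidative phosphorylation promoters and in 665 of 12023 (5.53%) promoters of all tested genes. The shares were 10.3% for the ribosome, 9.52% for import, 3.57% for the proteasome and 10.7% for the very large regulators, so lists that were higher lay on both sides of the share in all promoters. YY1 and CArG box motifs were searched as well, and were in 1.49% and 2.99% of oxidative phosphorylation promoters, against 1.13% and 1.26% of all. The median GC content of the windows was 56.8% for oxidative phosphorylation genes and 59.2% for all. These are matches of letters only, and binding was not measured.

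Cytosolic ribosomal protein genes rose almost as a block. Of 73 tested members 69 rose and 0 fell (40 of 43 of the large and 29 of 30 of the small subunit), with a median log2 fold change of 0.59. In 34 members every Al library lay above every Ta library. Of all tested genes 12.8% rose, 12.4% fell and 3.49% were higher without overlap. Rps28, a small subunit protein, was at 109.9, 154 and 197 CPM in Al kidneys, against 35.5, 46.6 and 52.97 CPM in Ta kidneys. Rps28 had a log2 fold change of 1.75 ± 0.17 (adjusted p = 6.19e-10). Rpl38, of the large subunit, was at 132.1, 177 and 228 CPM in Al kidneys, against 42.4, 49.2 and 73.5 CPM in Ta kidneys. Rpl38 had a log2 fold change of 1.74 ± 0.19 (adjusted p = 5.52e-09). Both genes separated the groups fully. Rpl41, Rpl22 and Rps21 had log2 fold changes of 1.22 ± 0.13, 0.87 ± 0.12 and 1.56 ± 0.16. Ribosomal protein genes have many processed copies, so the share of reads counted for each is uncertain.

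The proteasome, which degrades ubiquitin-tagged proteins, had 22 of 32 members higher and 0 lower, with a median log2 fold change of 0.31. Called members were 68.8% of this list and 46.2% of the large regulators below, against 25.2% of all tested genes. Psmb5, a catalytic subunit, was at 137.6, 173 and 185 CPM in Al kidneys, against 85.8, 95.7 and 101.6 CPM in Ta kidneys. Psmb5 had a log2 fold change of 0.81 ± 0.08 (adjusted p = 1.18e-09), with no overlap, and Psmb7 (0.70 ± 0.08, adjusted p = 1.55e-08) and Psmb6 (0.84 ± 0.10, adjusted p = 2.39e-08) followed. Genes of very large regulatory proteins, giant ubiquitin ligases and chromatin regulators, went the other way, with 0 of 39 members higher and 18 lower and a median of -0.25. Ncor1, a nuclear receptor co-repressor, was at 102.3, 123.6 and 145 CPM in Al kidneys, against 158, 177 and 204 CPM in Ta kidneys. Ncor1 had a log2 fold change of -0.51 ± 0.10 (adjusted p = 0.00012), every Al kidney below every Ta kidney. Ep300, a histone acetyltransferase, and Arid1b, a subunit of a chromatin remodelling complex, had log2 fold changes of -0.44 ± 0.09 and -0.46 ± 0.10. Without Ta replicate 2, 11 members of this list were lower, and with Al replicate 6 and Ta replicates 4 and 6 omitted, 6.

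The difference between the mean log2 CPM of the ribosome list and of the very large regulators was also taken for each library. It restates the results of these lists, and its correlation with other lists over libraries was not tested. It was 2.38 ± 0.41 in Al kidneys (range 1.82 to 3.04), against 1.47 ± 0.26 in Ta kidneys (range 1.03 to 1.79; SD, n = 8 each), so every Al library lay above every Ta library, and it was 2.23 ± 0.36 in Co, 1.85 ± 0.23 in W, 2.28 ± 0.30 in DU (n = 8 each) and 3.12 ± 0.47 in Pb kidneys (n = 7). RNA integrity values are not given in the sources used here, and the part of RNA quality in the result was not tested. In a fit with this difference as a covariate, 353 genes passed (275 higher, 78 lower), of which 282 also passed without it in the same direction. Members higher in that fit were 28 of 76 for oxidative phosphorylation, 4 of 22 for import and 3 of 32 for the proteasome, with 0 lower in each. The ribosome list, with 10 of 73 members higher and 4 lower in that fit, and the large regulators, with 0 of 39 lower, are the lists from which the covariate was made. Tomm7, Cox7c, Cox5b, Ndufa1, Rps28, Rpl38, Psmb5, Hspe1 and Sod1 were among the 37 of 168 named and called genes that passed in it. The fitted direction turned for Atf4, Clcn5, Cpt1a, Fth1, Krt19, Ldha, Ppara, Slc6a6, Tfrc and Timp3, none of them past the threshold in it.

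**Figure D2:**
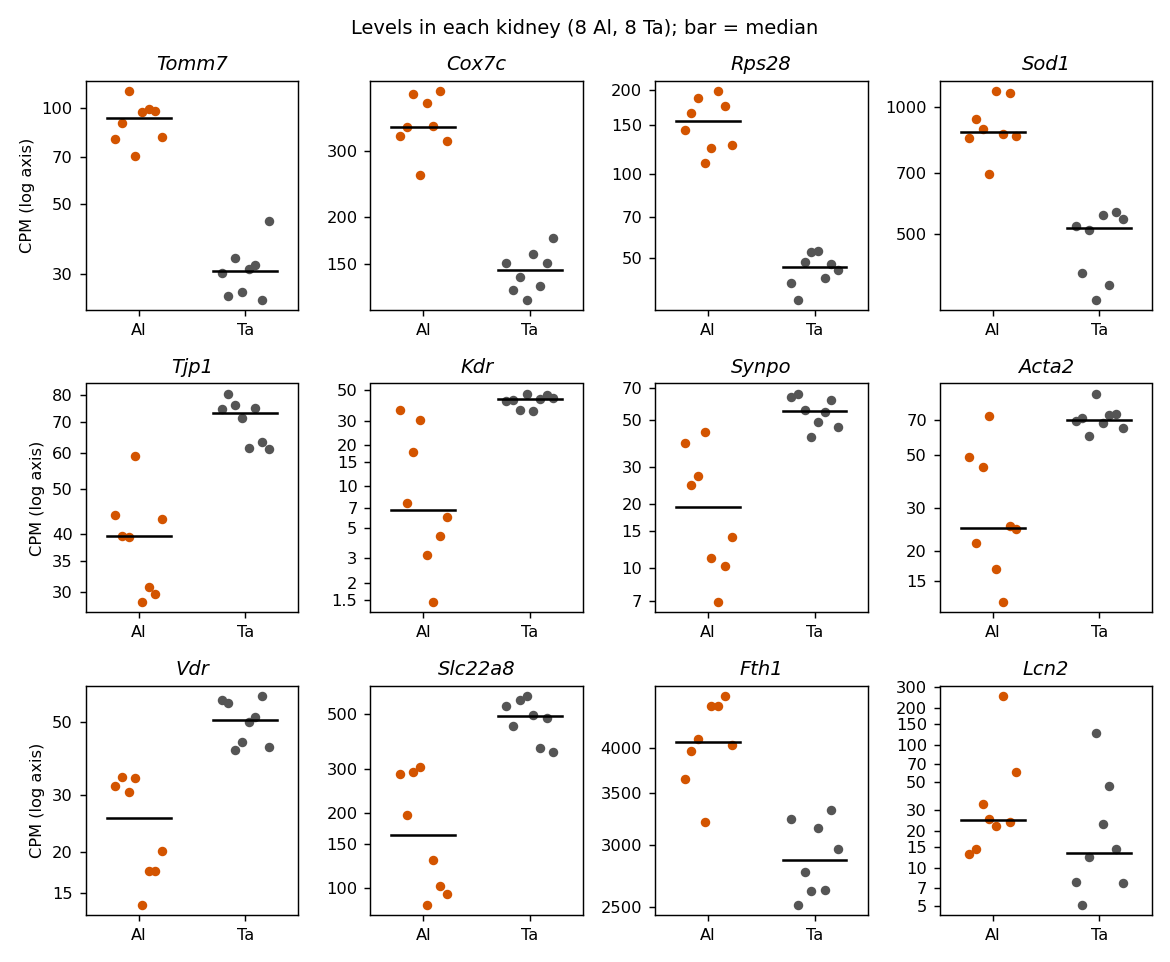
Level of 12 genes in CPM (vertical log axes, with a scale for each gene) in each of 8 Al kidneys (left) and 8 Ta kidneys (right), with a bar at the group median. Tomm7, Cox7c, Rps28 and Sod1 are higher in every Al kidney than in any Ta kidney, Tjp1, Vdr and Slc22a8 lower in every one, Kdr, Synpo and Acta2 spread widely among Al kidneys, and Lcn2 overlaps.

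Enzymes that remove superoxide and peroxide were higher in Al kidneys in 6 of 13 members and lower in 1. This was 53.8% of the list called, against 25.2% of all tested genes. Sod1, the cytosolic superoxide dismutase, was at 696, 876 and 1091 CPM in Al kidneys, against 349, 517 and 563 CPM in Ta kidneys. Sod1 had a log2 fold change of 0.92 ± 0.14 (adjusted p = 2.9e-06). The groups did not overlap in Sod1. Prdx5 (0.70 ± 0.13, adjusted p = 6.29e-05) and Prdx1 (0.48 ± 0.11, adjusted p = 0.00135), peroxiredoxins that reduce peroxides with thiols, also rose. The member that fell was Gpx3, the secreted glutathione peroxidase made largely by the kidney, at 1166, 2050 and 3319 CPM in Al kidneys, against 3582, 4344 and 6117 CPM in Ta kidneys. Gpx3 had a log2 fold change of -1.02 ± 0.36 (adjusted p = 0.0297), with no overlap between the groups. The call of Gpx3 was lost when any of 6 single libraries was left out (adjusted p up to 0.0683 without Al replicate 5).

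Targets of the oxidative stress factor NRF2 and glutathione genes held few calls. Of 30 members 4 rose and 1 fell (16.7%, against 25.2% of all tested genes), with a median log2 fold change of 0.09. Txn1, thioredoxin, was at 308, 402 and 519 CPM in Al kidneys, against 179.5, 230.4 and 257 CPM in Ta kidneys. Txn1 had a log2 fold change of 0.86 ± 0.12 (adjusted p = 9.44e-07), with no overlap between the groups. The others that rose were Keap1 (0.28 ± 0.08, adjusted p = 0.00829), which holds NRF2 in check, and the glutathione transferases Gstp1 (0.61 ± 0.18, adjusted p = 0.00871) and Gstk1 (0.50 ± 0.15, adjusted p = 0.0126). The export pump Abcc4 (-0.59 ± 0.17, adjusted p = 0.0103) fell. Nqo1, a standard NRF2 target, was at 6.45, 8.83 and 10.4 CPM in Al kidneys, against 7.34, 10.1 and 12.03 CPM in Ta kidneys. Nqo1 had a log2 fold change of -0.16 ± 0.22 (adjusted p = 0.628), with 2 of 8 Al kidneys below every Ta kidney. Hmox1, heme oxygenase 1, was at 1.62, 6.04 and 12.04 CPM in Al kidneys, against 1.93, 5.3 and 17.4 CPM in Ta kidneys. Hmox1 had a log2 fold change of -0.05 ± 0.50 (adjusted p = 0.96), with 1 of 8 Al kidneys below every Ta kidney, and its log2 fold change was -0.23 to 0.35 with 1 library left out. Without Al replicate 4, 7 members of the list were higher.

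Chaperones and the integrated stress response were called at close to the share of all tested genes (25.2%). Of 39 chaperones and folding factors 9 rose and 3 fell (30.8%). In the endoplasmic reticulum Manf (0.62 ± 0.13, adjusted p = 0.000412) and Creld2 (0.51 ± 0.13, adjusted p = 0.00257), both secreted factors of the unfolded protein response, rose, while Sel1l (-0.74 ± 0.16, adjusted p = 0.000668), part of the disposal route for misfolded proteins, fell. In the cytosol Ahsa1 (0.45 ± 0.08, adjusted p = 8.35e-05), an activator of HSP90, and the HSP40 protein Dnaja1 (0.37 ± 0.12, adjusted p = 0.0166) rose, and Hspa4 (-0.26 ± 0.07, adjusted p = 0.00331) fell. Of 14 genes of the integrated stress response 4 were called (28.6%). Those that rose were the transcription factors Atf4 (0.54 ± 0.16, adjusted p = 0.0117) and Ddit3 (0.46 ± 0.13, adjusted p = 0.0104) and the mTOR inhibitor Ddit4 (0.55 ± 0.17, adjusted p = 0.013), and Sesn2 fell (-0.48 ± 0.17; call lost when any of 8 single libraries was left out, adjusted p up to 0.0722 without Al replicate 7). Without Al replicate 4, 14 chaperones were higher, and with the ribosomal and large regulator difference as a covariate 2 chaperones and 0 integrated stress response genes were.

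Heme metabolism had 6 of 11 members higher and 0 lower (54.5% called, against 25.2% of all tested genes). Higher members included biliverdin reductase B, Blvrb (0.57 ± 0.11, adjusted p = 0.000236), and the synthesis enzymes Urod (0.40 ± 0.09, adjusted p = 0.000602) and Cpox (0.48 ± 0.14, adjusted p = 0.0095). Of 22 genes of fatty acid oxidation 6 rose and 2 fell (36.4% called). The thiolase Acaa1a (0.33 ± 0.08, adjusted p = 0.00178), the short-chain dehydrogenase Acads (0.37 ± 0.11, adjusted p = 0.0115) and the electron transfer subunit Etfb (0.44 ± 0.13, adjusted p = 0.0132) rose. Cpt1a, which admits fatty acids to mitochondria, fell, at 32.4, 73.7 and 99.4 CPM in Al kidneys, against 93.8, 109.7 and 153 CPM in Ta kidneys. Cpt1a had a log2 fold change of -0.59 ± 0.18 (adjusted p = 0.0141), with 7 of 8 Al kidneys below every Ta kidney. The transcription factor Ppara fell too (-0.91 ± 0.33), a call lost when any of 9 single libraries was left out (adjusted p up to 0.0895 without Ta replicate 2). Without Al replicate 5, 3 members of this list were higher, and with Al replicate 6 and Ta replicates 4 and 6 omitted, 1 was, beside 3 heme genes.

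Markers of the glomerular filter were lower in Al kidneys. Of 17 podocyte markers 12 fell and 0 rose (70.6% called, against 25.2% of all tested genes). Their median log2 fold change was -0.79, and their summed level was 222 to 573 CPM in Al kidneys and 479 to 803 CPM in Ta kidneys. Synpo, an actin-binding protein of podocyte foot processes, was at 6.92, 19.3 and 43.6 CPM in Al kidneys, against 41.4, 54.6 and 66.01 CPM in Ta kidneys. Synpo had a log2 fold change of -1.31 ± 0.32 (adjusted p = 0.00227). 7 of 8 Al kidneys lay below every Ta kidney in Synpo. Cd2ap (-0.54 ± 0.10, adjusted p = 8.27e-05), an adaptor of the slit diaphragm, and the phospholipase Plce1 (-0.79 ± 0.18, adjusted p = 0.00128) also fell, with smaller standard errors. Nphs1, nephrin, was at 5.05, 21.2 and 49.7 CPM in Al kidneys, against 16.3, 47.7 and 75.5 CPM in Ta kidneys. Nphs1 had a log2 fold change of -1.08 ± 0.38 (adjusted p = 0.0297), with 4 of 8 Al kidneys below every Ta kidney. Wt1, the podocyte transcription factor, was at 0.456, 4.14 and 7.17 CPM in Al kidneys, against 7.05, 10.7 and 14.9 CPM in Ta kidneys. Wt1 had a log2 fold change of -1.43 ± 0.45 (adjusted p = 0.0172), with 7 of 8 Al kidneys below every Ta kidney. Nphs1 lost its call when any of 7 single libraries was left out, with an adjusted p up to 0.0707 without Al replicate 5.

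Al kidneys were uneven in these markers. The mean log2 CPM of the podocyte list was 4.49, 3.90, 4.08, 4.51, 3.01, 2.77, 3.27 and 3.29 in Al replicates 1 to 8, against 4.37 to 4.97 in Ta kidneys, so that Al replicates 1 and 4 lay within the Ta range and replicates 5 to 8 lay furthest below. The list held 7 lower members without Al replicate 5, 6 or 8, and 6 with Al replicate 6 and Ta replicates 4 and 6 omitted.

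Endothelial markers, which mark glomerular capillaries and other vessels, had 10 of 19 members lower and 0 higher (52.6% called, against 25.2% of all tested genes). Their median log2 fold change was -0.78, and their summed level was 233 to 675 CPM in Al kidneys and 631 to 811 CPM in Ta kidneys. Ehd3, a marker of glomerular endothelium, was at 10.1, 17.7 and 27.9 CPM in Al kidneys, against 23.4, 33.6 and 38.01 CPM in Ta kidneys. Ehd3 had a log2 fold change of -0.78 ± 0.21 (adjusted p = 0.00542), with 6 of 8 Al kidneys below every Ta kidney. Erg (-1.20 ± 0.36, adjusted p = 0.0115), an endothelial transcription factor, and the adhesion receptor Adgrl4 (-1.45 ± 0.47, adjusted p = 0.0196) also fell. Kdr, the receptor for VEGF, was at 36.01, 7.61, 17.8, 30.7, 3.18, 1.44, 4.39 and 5.97 CPM in Al replicates 1 to 8, against 35.5 to 47.1 CPM in Ta kidneys (log2 fold change -1.65 ± 0.53, adjusted p = 0.0198). Replicate 1 reached the Ta range in Kdr, and replicates 3 and 4 came closest to it. The mean log2 CPM of the list was 4.64 to 4.72 in Al replicates 1, 3 and 4 and 2.97 to 3.81 in the other 5, against 4.65 to 5.04 in Ta kidneys. The count of lower members was 4 without Al replicate 6, 5 without Al replicate 8, 6 without Al replicate 2, 5 or 7, and 1 with Al replicate 6 and Ta replicates 4 and 6 omitted.

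Markers of fibroblasts, pericytes and smooth muscle had 11 of 17 members lower and 0 higher, with a median of -0.84. Called members were 64.7% of this stromal list and 35.3% of the matrix list below, against 25.2% of all tested genes. Acta2, smooth muscle actin, was at 12.2, 24.97 and 72.4 CPM in Al kidneys, against 60.004, 70.2 and 89.7 CPM in Ta kidneys. Acta2 had a log2 fold change of -1.10 ± 0.26 (adjusted p = 0.00205), and 7 of 8 Al kidneys lay below every Ta kidney. Myh11 (-1.05 ± 0.27, adjusted p = 0.00337), smooth muscle myosin, and Rgs5 (-1.43 ± 0.39, adjusted p = 0.00642), a pericyte marker, fell likewise, and Pdgfrb, the PDGF receptor of pericytes, was at 5.58, 11.3 and 27.5 CPM in Al kidneys, against 23.7, 32.6 and 71.98 CPM in Ta kidneys. Pdgfrb had a log2 fold change of -1.36 ± 0.47 (adjusted p = 0.0283), with 7 of 8 Al kidneys below every Ta kidney, and its call was lost when any of 5 single libraries was left out, adjusted p up to 0.0803 without Ta replicate 4. Matrix and fibrosis genes had 12 of 34 members lower and 0 higher, with a median of -0.84, among them the basement membrane collagen Col4a5 (-0.42 ± 0.11, adjusted p = 0.00303), the proteoglycan Bgn (-1.11 ± 0.30, adjusted p = 0.00551) and the metalloproteinase inhibitor Timp3 (-0.86 ± 0.23, adjusted p = 0.0057). The counts of lower members were 6 in both lists without Ta replicate 4, 7 in the stromal list without Al replicate 2, 6, 7 or 8, and 3 and 2 with Al replicate 6 and Ta replicates 4 and 6 omitted. A fit had the mean levels of the proximal tubule transporter and endothelium lists as covariates. They are called cell make-up below, though they are RNA levels and not cell counts. In this fit 61 of 76 oxidative phosphorylation members and 55 of 73 ribosomal members were higher. Lower members in it were 2 of 17 for podocytes, 1 of 17 for the stromal list and 0 of 34 for matrix. Both covariates came from these same libraries, and the endothelium mean lay below the Ta range in 6 of 8 Al kidneys. A covariate that itself differs between the groups can take up their difference, so the cause of the lost calls was not tested. In the fit with the ribosomal and large regulator difference as a covariate, lower members were 0 in each of the podocyte, endothelium, stromal and matrix lists.

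**Figure D3:**
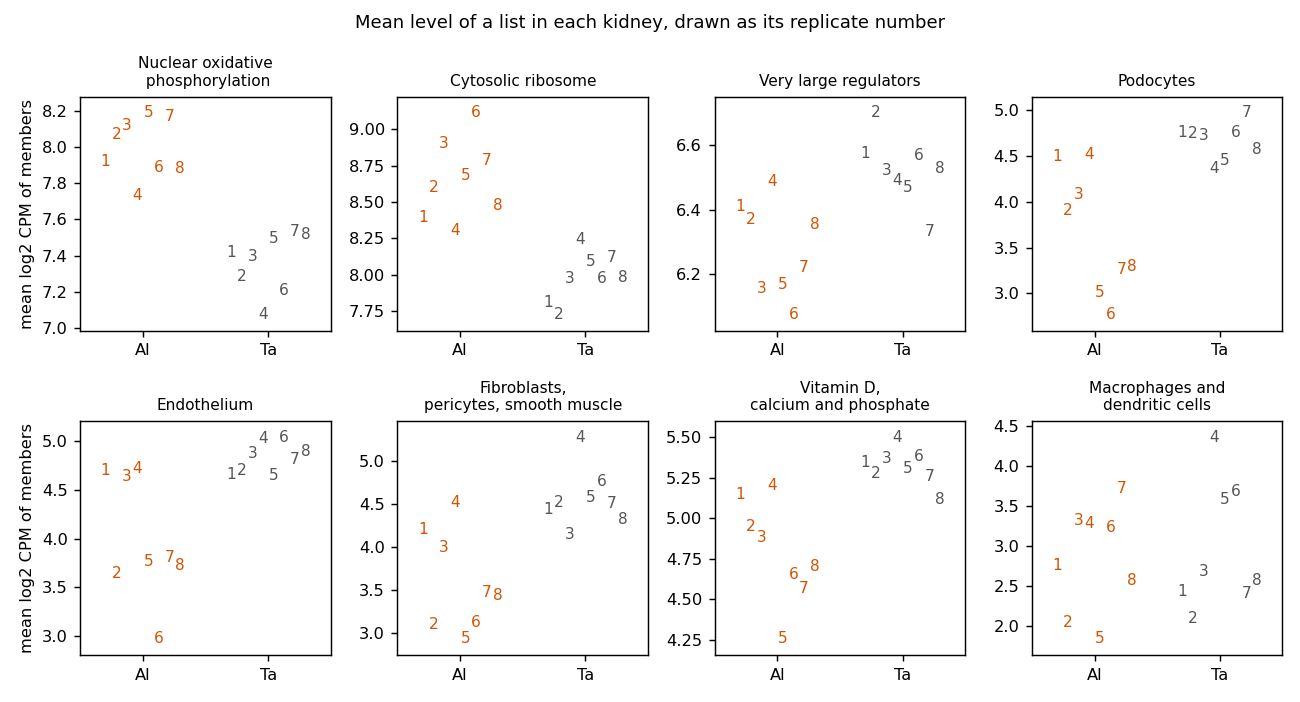
Mean log2 CPM of the members of 8 gene lists (vertical axes, with a scale for each list) in each kidney, Al on the left and Ta on the right, each kidney drawn as its replicate number. Al kidneys are above all Ta kidneys in the oxidative phosphorylation and ribosome lists, while in the endothelium list replicates 1, 3 and 4 of Al sit at 4.64 to 4.72, near the Ta kidneys, and the other 5 sit lower.

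Genes of vitamin D, calcium and phosphate handling were lower in Al kidneys in 6 of 21 members and higher in 0, with a median of -0.56. Of this list 28.6% were called, close to the 25.2% of all tested genes, of which 12.4% of all tested were lower. Vdr, the vitamin D receptor, was at 13.9, 25.4 and 33.97 CPM in Al kidneys, against 41.2, 50.8 and 59.8 CPM in Ta kidneys. Vdr had a log2 fold change of -1.01 ± 0.25 (adjusted p = 0.00217). Every Al kidney was below every Ta kidney in Vdr. Cyp24a1, the enzyme that inactivates vitamin D and a target of the receptor, was at 36.7, 64.3 and 84.5 CPM in Al kidneys, against 67.5, 97.7 and 195 CPM in Ta kidneys. Cyp24a1 had a log2 fold change of -0.86 ± 0.27 (adjusted p = 0.0172), with 5 of 8 Al kidneys below every Ta kidney, and its call was lost without Ta replicate 1, at adjusted p = 0.0672. Kl, klotho, the co-receptor through which FGF23 acts on phosphate, was at 42.99, 80.5 and 146 CPM in Al kidneys, against 109.3, 175 and 217 CPM in Ta kidneys. Kl had a log2 fold change of -0.99 ± 0.33 (adjusted p = 0.0255), with 5 of 8 Al kidneys below every Ta kidney, and its call was lost when any of 4 single libraries was left out (adjusted p up to 0.0618 without Al replicate 5). The plasma membrane calcium pump Atp2b1 (-0.42 ± 0.09, adjusted p = 0.00109) and the phosphate exporter Xpr1 (-0.69 ± 0.20, adjusted p = 0.00983) fell, as did the calcium pump Atp2b4 (-1.05 ± 0.36, adjusted p = 0.0282), with its call lost when any of 5 single libraries was left out, adjusted p up to 0.0658 without Al replicate 5. With Al replicate 6 and Ta replicates 4 and 6 omitted, 2 members were lower, with cell make-up as covariates 1 (Vdr), and with the ribosomal and large regulator difference as a covariate 0.

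Proximal tubule genes held calls in both directions. Of 64 members 3 rose and 7 fell (15.6% called, against 25.2% of all tested genes), with a median log2 fold change of -0.08, and their summed level was 22328 to 46906 CPM in Al kidneys and 18321 to 36018 CPM in Ta kidneys. Parts of the list differed in mean log2 CPM. It lay below the Ta range in 8 of 8 Al kidneys for apical uptake receptors. The same held for glucose, amino acid and peptide transporters, of which 0 of 16 were called. It lay below in 6 of 8 for bicarbonate, ammonia and gluconeogenesis genes and in 0 of 8 for organic ion and urate transporters. For segment S3 and brush border enzymes it lay above the Ta range in 4 of 8. The apical receptor complex that takes up filtered proteins was split, with Amn, amnionless, at 260.2, 299 and 354 CPM in Al kidneys, against 189, 214 and 244 CPM in Ta kidneys. Amn had a log2 fold change of 0.47 ± 0.15 (adjusted p = 0.0195), while its partner Cubn, cubilin, had a log2 fold change of -0.36 ± 0.12 (adjusted p = 0.0199; call lost when any of 3 single libraries was left out, adjusted p up to 0.0912 without Ta replicate 2). Dab2, the endocytic adaptor of this receptor system, was at 119.2, 179.6 and 227 CPM in Al kidneys, against 234, 294 and 307 CPM in Ta kidneys. Dab2 had a log2 fold change of -0.67 ± 0.18 (adjusted p = 0.00637). Amn and Dab2 each separated the groups fully, in opposite directions. The endosomal chloride transporter Clcn5 (-1.24 ± 0.34, adjusted p = 0.00646) fell as well.

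Slc22a8, the organic anion transporter OAT3, was at 86.04, 163 and 305 CPM in Al kidneys, against 350.2, 488 and 586 CPM in Ta kidneys. Slc22a8 had a log2 fold change of -1.36 ± 0.48 (adjusted p = 0.0332). All Al kidneys were below all Ta kidneys in Slc22a8, yet its call was lost when any of 7 single libraries was left out (adjusted p up to 0.0714 without Al replicate 5). The urate transporter Slc22a12 was at 891, 1092 and 1336 CPM in Al kidneys, against 411, 808 and 988 CPM in Ta kidneys. Slc22a12 had a log2 fold change of 0.50 ± 0.19 (adjusted p = 0.0455), with 5 of 8 Al kidneys above every Ta kidney. Ggt1, the brush border gamma-glutamyl transferase, was at 2537, 3348 and 5042 CPM in Al kidneys, against 1189, 2363 and 3059 CPM in Ta kidneys. Ggt1 had a log2 fold change of 0.65 ± 0.22 (adjusted p = 0.0256), with 6 of 8 Al kidneys above every Ta kidney. These calls, and those of the bicarbonate transporter Slc4a4 (-1.67 ± 0.60, adjusted p = 0.0354) and the carnitine transporter Slc22a5 (-0.70 ± 0.26, adjusted p = 0.0402), were lost when any of 9, 3, 9 and 12 single libraries was left out, with adjusted p up to 0.0978, 0.0727, 0.0765 and 0.0997. Neutral amino acid transporter Slc6a19 was at 5.37, 10.7 and 28.2 CPM in Al kidneys, against 27.8, 41.4 and 64.9 CPM in Ta kidneys and did not pass (log2 fold change -1.51 ± 0.58, adjusted p = 0.0502), though it passed when any of 3 single libraries was left out. Single left-out libraries moved the count of lower members to between 3 (without Al replicate 7 or Ta replicate 4) and 12 (without Al replicate 1), and it was 4 without Al replicate 5, 6 or 8 or Ta replicate 1 or 3. Higher members were 5 without Al replicate 4 and 1 without Al replicate 5 or 7 or Ta replicate 4. Higher and lower members were 8 and 22 with limma voom, 8 and 18 with Al and Ta libraries alone, and 0 and 2 with Al replicate 6 and Ta replicates 4 and 6 omitted.

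Lists of the later segments held 10% called members in the thick ascending limb, 44.4% in the distal convoluted tubule, 16.7% in principal cells and 9.09% in intercalated cells, against 25.2% of all tested genes. The thick ascending limb list had 1 of 10 members higher, the claudin Cldn10 (0.51 ± 0.15, adjusted p = 0.00924), and Umod, uromodulin, the main secreted product of this segment, was at 2448, 4577 and 6469 CPM in Al kidneys, against 1716, 3900 and 5631 CPM in Ta kidneys. Umod had a log2 fold change of 0.21 ± 0.27 (adjusted p = 0.616), with 1 of 8 Al kidneys above every Ta kidney. In the distal convoluted tubule list 1 of 9 members rose and 3 fell. Fxyd2, the gamma subunit of the sodium pump, was at 1377, 1578 and 1936 CPM in Al kidneys, against 633, 943 and 1276 CPM in Ta kidneys. Fxyd2 had a log2 fold change of 0.74 ± 0.19 (adjusted p = 0.0041), without overlap. Trpm7, a magnesium-permeable channel kinase, was at 46.3, 71.9 and 88.5 CPM in Al kidneys, against 87.6, 104.6 and 127.04 CPM in Ta kidneys. Trpm7 had a log2 fold change of -0.66 ± 0.12 (adjusted p = 7.39e-05), with 7 of 8 Al kidneys below every Ta kidney. The kinase Wnk1 (-0.89 ± 0.26, adjusted p = 0.00872) and the magnesium transporter Cnnm2 (-0.53 ± 0.17; call lost without Al replicate 6, at adjusted p = 0.0504) were the other members that fell. The list held 7 lower members with limma voom, 5 with Al and Ta libraries alone and 0 with the ribosomal and large regulator difference as a covariate. In principal cells of the collecting duct Nr3c2, the mineralocorticoid receptor, was at 5.13, 12.3 and 16.9 CPM in Al kidneys, against 16.9, 20.04 and 26.6 CPM in Ta kidneys. Nr3c2 had a log2 fold change of -0.83 ± 0.22 (adjusted p = 0.00535), all Al kidneys below all Ta kidneys, and Fxyd4, a sodium pump regulator, rose (log2 fold change 0.70 ± 0.27, adjusted p = 0.0498), with its call lost when any of 11 single libraries was left out, adjusted p up to 0.119 without Al replicate 5. In intercalated cells 1 of 11 members rose, the proton pump subunit Atp6v1g3 (log2 fold change 0.58 ± 0.19, adjusted p = 0.025; call lost when any of 2 single libraries was left out, adjusted p up to 0.0757 without Al replicate 6).

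Of 8 renin-angiotensin genes 1 rose and 2 fell. Called members were 37.5% of this list and 20% of the medulla list below, against 25.2% of all tested genes. Agt, angiotensinogen, was at 125.5, 182 and 215 CPM in Al kidneys, against 41.7, 120.5 and 137.4 CPM in Ta kidneys. Agt had a log2 fold change of 0.68 ± 0.23 (adjusted p = 0.0262), with 7 of 8 Al kidneys above every Ta kidney, and lost its call when any of 3 single libraries was left out (adjusted p up to 0.0518 without Al replicate 5). Agtr1a, an angiotensin receptor gene, was at 2.89, 6.14 and 9.7 CPM in Al kidneys, against 8.09, 15.5 and 23.96 CPM in Ta kidneys. Agtr1a had a log2 fold change of -1.20 ± 0.35 (adjusted p = 0.00982), with 6 of 8 Al kidneys below every Ta kidney. Its near copy Agtr1b fell with it (-1.71 ± 0.60; call lost when any of 6 single libraries was left out, adjusted p up to 0.0686 without Ta replicate 5), and reads of the pair may not be told apart. In the medulla list Slc6a6, the taurine transporter, fell (log2 fold change -0.63 ± 0.17, adjusted p = 0.00644) and Cryab, a small heat shock protein, rose (log2 fold change 0.70 ± 0.26, adjusted p = 0.0387; call lost when any of 6 single libraries was left out, adjusted p up to 0.114 without Al replicate 5).

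Genes that bind or carry metals were called about as often as the table as a whole. Of 27 members 1 rose and 5 fell, against 25.2% of all tested genes, with a median of -0.20. Fth1, the heavy chain of the iron store ferritin, was at 3207, 4064 and 4653 CPM in Al kidneys, against 2518, 2870 and 3324 CPM in Ta kidneys. Fth1 had a log2 fold change of 0.49 ± 0.14 (adjusted p = 0.00749), and 7 of 8 Al kidneys lay above every Ta kidney. Tfrc, the transferrin receptor, was at 4.79, 15.6 and 35.5 CPM in Al kidneys, against 15.8, 29.1 and 41.05 CPM in Ta kidneys. Tfrc had a log2 fold change of -0.70 ± 0.25 (adjusted p = 0.0317), with 4 of 8 Al kidneys below every Ta kidney. Ireb2 (-0.51 ± 0.13, adjusted p = 0.00391), an iron regulatory protein, Ncoa4, the receptor that delivers ferritin for breakdown (-0.40 ± 0.14), the iron exporter Slc40a1 (-0.34 ± 0.12) and the zinc transporter Slc39a10 (-0.61 ± 0.22) were the other lower members. Calls of Tfrc, Ncoa4, Slc40a1 and Slc39a10 were lost when any of 9, 9, 10 and 10 single libraries was left out, with adjusted p up to 0.0877, 0.0855, 0.125 and 0.0992, so that the count of lower members came to 1 without Al replicate 5, 7 or 8 or Ta replicate 1 or 2, 2 without Al replicate 6 or Ta replicate 6 or 8, and 3 without Al replicate 3 or Ta replicate 3, 4 or 5.

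The metallothioneins of this list, small proteins that bind zinc, copper and cadmium, did not pass in edgeR's test, with 0 of 3 at an unadjusted p under 0.05. Mt1 was at 119.4, 314 and 531 CPM in Al kidneys, against 274, 375 and 486 CPM in Ta kidneys. Mt1 had a log2 fold change of -0.34 ± 0.32 (adjusted p = 0.474). Mt2A was at 388, 536 and 866 CPM in Al kidneys, against 328, 477 and 609 CPM in Ta kidneys. Mt2A had a log2 fold change of 0.28 ± 0.33 (adjusted p = 0.568). The groups overlapped in both genes. Mt1m, outside the list, was at 2.66, 5.26 and 7.14 CPM in Al kidneys, against 0.897, 1.8 and 2.06 CPM in Ta kidneys. Mt1m had a log2 fold change of 1.57 ± 0.41 (adjusted p = 0.00388), with no overlap between the groups. Tf, transferrin, was at 355, 532 and 899 CPM in Al kidneys, against 247, 409 and 538 CPM in Ta kidneys. Tf had a log2 fold change of 0.54 ± 0.39 (adjusted p = 0.325), with 4 of 8 Al kidneys above every Ta kidney. Ftl1, the ferritin light chain, was at 3513, 3934 and 5565 CPM in Al kidneys, against 3063, 3760 and 4635 CPM in Ta kidneys. Ftl1 had a log2 fold change of 0.15 ± 0.10 (adjusted p = 0.297), with 2 of 8 Al kidneys above every Ta kidney.

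Markers of tubular injury and repair overlapped between the groups, with 2 of 22 members higher and 1 lower (13.6% called, against 25.2% of all tested genes). Havcr1, KIM-1, was at 14.4, 33.8 and 165 CPM in Al kidneys, against 3.86, 20.5 and 97.5 CPM in Ta kidneys. Havcr1 had a log2 fold change of 0.63 ± 0.73 (adjusted p = 0.566), with 1 of 8 Al kidneys above every Ta kidney. Lcn2, NGAL, was at 13.2, 24.6 and 249.5 CPM in Al kidneys, against 5.1, 13.4 and 124.8 CPM in Ta kidneys. Lcn2 had a log2 fold change of 0.87 ± 0.94 (adjusted p = 0.534), with 1 of 8 Al kidneys above every Ta kidney. Both were highest in Al replicate 6 and, among Ta kidneys, in replicate 4, and the standard errors leave wide intervals. Spp1, osteopontin, Clu, clusterin, and Timp1 had log2 fold changes of 0.43 ± 0.59, 0.43 ± 0.49 and 0.19 ± 0.55, with adjusted p of 0.636, 0.563 and 0.838. Without Al replicate 6 the log2 fold change was -0.15 for Spp1, -0.16 for Clu, -0.13 for Lcn2 and 0.03 for Havcr1, so the direction turned in Spp1, Clu and Lcn2. Timp1 ranged over -0.22 to 0.67 with 1 library left out. Tff3, trefoil factor 3, was at 676, 1480 and 2228 CPM in Al kidneys, against 236, 669 and 1061 CPM in Ta kidneys. Tff3 had a log2 fold change of 1.10 ± 0.28 (adjusted p = 0.00296), with every Al kidney above the Ta median and 5 of 8 above every Ta kidney. Krt19, a keratin of damaged and duct epithelium, was the other higher member (log2 fold change 0.53 ± 0.20, adjusted p = 0.039; call lost when any of 5 single libraries was left out, adjusted p up to 0.126 without Al replicate 6), and the adhesion molecule Vcam1 fell (log2 fold change -1.07 ± 0.40, adjusted p = 0.0449; call lost when any of 10 single libraries was left out, adjusted p up to 0.166 without Ta replicate 4).

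Against Co kidneys, no gene passed an adjusted p of 0.05 in edgeR's test (0% of 15868), with 1196 genes at an unadjusted p under 0.05. DESeq2 called 26 and limma voom 37. The smallest adjusted p was shared by Emc10, Esrra, Tomm7 and Eif5b. Emc10, a subunit of the membrane protein insertase of the endoplasmic reticulum, was at 78.1, 84.01 and 88.6 CPM in Al kidneys, against 64.7, 68.6 and 72.97 CPM in Co kidneys (log2 fold change 0.29 ± 0.06, adjusted p = 0.0862). Esrra, the nuclear receptor that drives genes of mitochondrial energy metabolism, was at 99.4, 112.5 and 122.7 CPM in Al kidneys, against 72.997, 88.7 and 96.8 CPM in Co kidneys (log2 fold change 0.37 ± 0.08, adjusted p = 0.0862). In both genes every Al kidney lay above every Co kidney. Tomm7 was at 70.4, 92.99 and 112.4 CPM in Al kidneys, against 56.6, 61.2 and 70.6 CPM in Co kidneys (log2 fold change 0.53 ± 0.12, adjusted p = 0.0862). Crb3, a polarity protein of epithelia, followed (log2 fold change 0.41 ± 0.09, adjusted p = 0.111), and among lower genes the translation factor Eif5b (log2 fold change -0.65 ± 0.13, adjusted p = 0.0862), the spliceosome factor U2surp (log2 fold change -0.30 ± 0.07, adjusted p = 0.107) and the kinase Sik1 (log2 fold change -0.84 ± 0.19, adjusted p = 0.108).

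List medians against Co differed in size, in a comparison that shares its Al kidneys with the one above. The median log2 fold change of Al over Co was 0.06 for oxidative phosphorylation, 0.12 for the ribosome, 0.04 for import, -0.07 for podocytes, -0.02 for endothelium and -0.07 for the stromal list. It was -0.31 for mitochondrially encoded subunits, -0.24 for renin-angiotensin genes, 0.21 for the thick ascending limb, 0.29 for tubular injury, 0.29 for the medulla, 0.50 for macrophages and 0.55 for lymphocytes. Over the 41 lists the lowest of these medians was that of the mitochondrially encoded subunits and the highest that of lymphocytes. Single genes had wide errors in this comparison, with -0.27 ± 0.32 for Synpo, -0.45 ± 0.53 for Kdr, -0.24 ± 0.25 for Vdr and -0.72 ± 0.27 for Cyp24a1, so Al and Co kidneys are not shown to be alike. Kdr was at 1.44, 6.79 and 36.01 CPM in Al kidneys, against 3.07, 10.4 and 51.2 CPM in Co kidneys, a wide spread in both. Against the mean of W, Co, Pb and DU, no gene passed either (0% of 15868 in edgeR's test, 412 at an unadjusted p under 0.05, 0 in DESeq2 and 12 in limma voom), and the smallest adjusted p was 0.536, of the transport GTPase Rab1b (log2 fold change 0.24 ± 0.06).

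**Figure D4:**
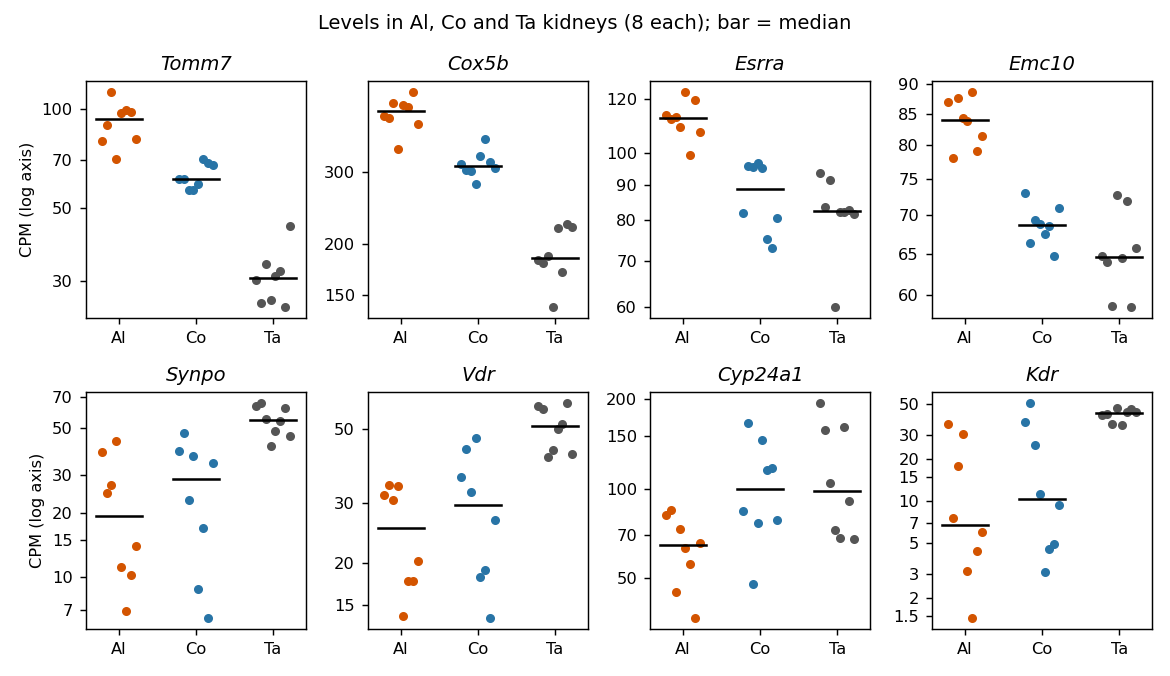
Level of 8 genes in CPM (vertical log axes, with a scale for each gene) in Al, Co and Ta kidneys, 8 of each, with a bar at the group median. Esrra and Emc10 are higher in every Al kidney than in any Co or Ta kidney, Tomm7 and Cox5b have their Co median between the Al and Ta medians, with some overlap of Al and Co kidneys, and Kdr, Synpo and Vdr spread widely in Al and Co kidneys but not in Ta kidneys.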

How the data were processed

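Kidney RNA of 47 rats was taken with TRIzol and treated with DNase, per the labels' protocols. Raw counts of reads for each gene were deposited by the authors. The submitters' processing notes name STAR 2.7.2a, Subread 1.6.4 (featureCounts) and the mRatBN7.2 build. Strand setting, annotation and the treatment of reads with several matches are not given in the sources used here, so near-identical, overlapping and antisense genes are uncertain.

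The table held 22525 genes, and 18641 symbols (82.8%) matched RefSeq. In 29 lines, pieces of 5 very long genes, no gene name stands, and they (0.0317% of counts) were not used. Group and replicate number came from sample titles, and animals of a group are separate numbered samples. None of the 84 pairs of libraries within Al, within Ta or within Co agreed within sampling noise, and other pairs were not checked. Depth, 23259750 to 35775818 counts in Al and Ta libraries, sets counting error only.

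One fit over all 47 libraries used edgeR 4.0.16 under R 4.3.3 (filterByExpr, TMM, quasi-likelihood F test, Benjamini-Hochberg adjustment over 15868 genes, threshold 0.05), tested on simulated data. The contrasts were Al against Ta, Al against Co, and Al against the mean of W, Co, Pb and DU. Log2 CPM for list means used a prior count of 2. Alternatives were DESeq2 1.42.0, limma 3.58.1, other scalings, filters, sample sets, thresholds, a replicate block, covariates and left-out libraries.

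The comparison and the 41 gene lists were chosen with earlier results of these data known. Genes named are up to 10 of largest change per direction (mean of at least 1 CPM, no overlap, no provisional name), up to 8 of smallest p per direction, up to 3 of smallest p in each part of a list, and a panel of injury and metal genes, plus up to 6 per direction in the other contrasts. Gpx3, Ncoa4, Cpt1a, Ppara, Sesn2, Cubn, Cnnm2, Kdr, Nphs1, Wt1, Pdgfrb, Isg20 and Ankrd37 were named after their values were seen. Some genes that the rule chose, counted in the totals of named genes, are not reported here.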

Additional observations from a re-analysis of the deposited data

Results flagged for a closer look

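In 198 checks of 8 libraries each (genes described in depth, list means and library measures, in Al and in Ta kidneys), 16 had a highest or lowest library far from the other 7, and chance flags about 1 group in 20. Al replicate 6 accounted for 5 of them. Its Cpt1a was 32.4 CPM, against 65.8 to 99.4 CPM in the other Al kidneys. Its Bax was 86.9 CPM, against 47.8 to 61.6 CPM. Its mean log2 CPM was 7.21 for the loop of Henle list (others 7.65 to 7.96), 6.45 for fatty acid oxidation (6.78 to 7.04) and 5.16 for immediate early genes (4.21 to 4.65). In Al replicate 1 the mean log2 CPM of the NRF2 and glutathione list was 6.09, against 6.19 to 6.26 in the other Al kidneys.

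Among Ta kidneys, replicate 4 was lowest in Nphs1 (16.3 CPM, others 40.6 to 75.5), Kl (109 CPM, others 157 to 217), Agt (41.7 CPM, others 108.5 to 137.4), Esrra (59.9 CPM, others 81.6 to 93.5) and the intercalated cell list (6.27, others 6.67 to 6.99). Mt1m was 0.897 CPM in Ta replicate 6 (others 1.47 to 2.06) and Dab2 was 234 CPM in Ta replicate 8 (others 272 to 307). Ta replicate 1 had the highest Cpt1a (153 CPM, others 93.8 to 117) and the highest total count (35775818, others 23259750 to 29189706). In Ta replicate 7, mitochondrially encoded genes took 25.1% of counts, against 17.2% to 20.8% in the other Ta kidneys.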

How the results depend on the processing

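For Al against Ta, the 3996 calls became 4366 with DESeq2, 5719 with limma voom, 3970 and 3994 with RLE and upper quartile scaling, 4000 and 4014 with no filter and a strict one, 4636 with Al and Ta libraries alone, 5143 at an adjusted p of 0.1 and 3158 with Ta replicates 4 and 6 omitted. A test for a fold of at least 1.5 left 83 higher and 0 lower genes, 83 in all. With the balance of ribosomal and very large regulator genes as a covariate 353 genes passed (275 higher, 78 lower), and with cell make-up as covariates 1268 (946 higher, 322 lower). Omitting Ta replicates 4 and 6 left 1289 lower genes, and omitting Al replicate 6 as well left 2260 genes, 780 of them lower; both were chosen after seeing the data. Leaving out 1 library gave 3069 to 4430 calls, 1694 to 2433 higher and 1325 to 2180 lower. For Al against Co the 0 calls became 26 with DESeq2 (19 higher, 7 lower), 37 with limma voom (35 higher, 2 lower), 19 with the balance covariate (13 higher, 6 lower), 18 with cell make-up (15 higher, 3 lower), 8 at an adjusted p of 0.1 (5 higher, 3 lower), and 0 to 1 with 1 library left out, the 1 being lower. For Al against the mean of 4 metals limma voom gave 12 genes, all 12 higher, and leaving out 1 library gave 0. The causes of these moves were not tested.

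Correlations of same-numbered Al and Ta libraries were -0.0608 to 0.267, and 2 of 8 Al libraries correlated best with their own number. For Al and Co they were -0.168 to 0.342, again with 2 of 8. Levels still followed replicate number in some groups. The mean log2 CPM of the endothelium list in W was 4.61 to 5.01 in replicates 1 to 4. It was 3.38 to 3.89 in W replicates 5 to 8. In Co these ranges were 3.91 to 5.04 and 2.83 to 3.87. In DU the later replicates were the higher, and in Ta and Pb the ranges overlapped. In Al the ranges overlapped through replicate 2 alone. The podocyte list mean was 3.90 to 4.51 in Al replicates 1 to 4 and 2.77 to 3.29 in Al replicates 5 to 8. Means of the vitamin D, calcium and phosphate list and of the distal convoluted tubule list were also lower in each of Al replicates 5 to 8. Those of the oxidative phosphorylation and ribosome lists overlapped between these Al replicates. What the numbering stands for was not tested. With the replicate block 4138 genes passed (2051 higher, 2087 lower). Of 168 named genes called, 42 lost the call without at least 1 library. Under the balance covariate 37 stayed called and 10 turned direction: log2 fold changes were Atf4 -0.0957, Clcn5 0.0223, Cpt1a 0.0406, Fth1 -0.0197, Krt19 -0.0798, Ldha -0.0229, Ppara 0.292, Slc6a6 0.0192, Tfrc 0.0887 and Timp3 0.0255. With cell make-up as covariates 74 stayed called. Of the 82 counts of higher and of lower members over the 41 lists, those that came out over 1.5 times smaller numbered 46 with the balance covariate, 43 with cell make-up and 34 with the 3 libraries omitted, and those over 1.5 times larger 27 with limma voom and 17 with Al and Ta alone.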

Other observations

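Genes of the circadian clock were lower in Al kidneys in 6 of 16 members and higher in 0, with a median log2 fold change of -0.39. Of this list 37.5% were called, against 25.2% of all tested genes. Clock, a core activator, was at 4.52, 6.75 and 14.6 CPM in Al kidneys, against 14.1, 17.5 and 22.8 CPM in Ta kidneys. Clock had a log2 fold change of -1.13 ± 0.26 (adjusted p = 0.00148), with 7 of 8 Al kidneys below every Ta kidney, and the repressors Nr1d1 (-0.99 ± 0.26, adjusted p = 0.00442) and Nr1d2 (-0.72 ± 0.21, adjusted p = 0.00864) fell too. Without Al replicate 5, 3 members were lower, as with Al replicate 6 and Ta replicates 4 and 6 omitted, and the hour of sampling is not given in the sources used here. Of 19 genes of cholesterol synthesis 5 fell and 0 rose (26.3% called, close to the 25.2% of all tested genes). Sc5d, a late enzyme of the pathway, was at 13.2, 16.8 and 21.1 CPM in Al kidneys, against 21.4, 24.8 and 30.9 CPM in Ta kidneys. Sc5d had a log2 fold change of -0.58 ± 0.12 (adjusted p = 0.000306), every Al kidney below every Ta kidney, and Nsdhl (-0.41 ± 0.11, adjusted p = 0.004) followed. Single left-out libraries took that count to 2 (Al replicate 7, Ta replicate 2 or 6) or 3 (Al replicate 3, 6 or 8, Ta replicate 4 or 5).

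Bax, which drives apoptosis, was at 47.8, 53.3 and 86.9 CPM in Al kidneys, against 25.3, 33.4 and 42.03 CPM in Ta kidneys. Bax had a log2 fold change of 0.76 ± 0.11 (adjusted p = 1.99e-06), with no overlap, one of 2 among 14 p53 targets that rose. Cdkn1a, another p53 target, was at 6.61, 13.8 and 24.7 CPM in Al kidneys, against 10.3, 15.8 and 24.7 CPM in Ta kidneys. Cdkn1a had a log2 fold change of -0.12 ± 0.24 (adjusted p = 0.75), with 2 of 8 Al kidneys below every Ta kidney, and a log2 fold change of 0.01 without Ta replicate 6. The other that rose was Gadd45a (log2 fold change 0.31 ± 0.10, adjusted p = 0.0229; call lost without Al replicate 6, at adjusted p = 0.0501). Of 17 proliferation genes 2 rose, Birc5 (0.83 ± 0.26, adjusted p = 0.0167) and Pcna (0.27 ± 0.09; call lost when any of 3 single libraries was left out, adjusted p up to 0.0712 without Al replicate 6). Of 12 hypoxia genes 3 rose, the oxygen sensor Egln1 (0.31 ± 0.07, adjusted p = 0.0017), Ldha (0.33 ± 0.10; call lost without Al replicate 6, at adjusted p = 0.0508) and Ankrd37 (0.66 ± 0.22; call lost when any of 3 single libraries was left out, adjusted p up to 0.0524 without Al replicate 3), and Hif1a (-0.47 ± 0.14, adjusted p = 0.0133) fell. Of 17 immediate early genes 2 fell, Egr1 (-0.79 ± 0.22, adjusted p = 0.00738) and Nr4a1 (-0.71 ± 0.26; call lost when any of 11 single libraries was left out, adjusted p up to 0.107 without Ta replicate 3). Called shares were 14.3% for p53 targets, 11.8% for proliferation, 33.3% for hypoxia and 11.8% for immediate early genes. Of all tested genes 25.2% were called, 12.8% higher and 12.4% lower.

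Immune lists were called less often than all tested genes (25.2%). The share was 21.1% for interferon targets, close to that of all genes. It was 12.5% for complement and chemokines and 6.25% for antigen presentation. Of 19 macrophage and dendritic cell markers and 21 lymphocyte markers, 0 passed in either direction in edgeR's test, in DESeq2 or in limma voom, with 0 and 0 at an unadjusted p under 0.05. With Ta replicates 4 and 6 omitted, which had the highest lymphocyte markers among Ta kidneys, 3 lymphocyte markers were higher in Al kidneys. Omitting the Ta kidneys highest in these markers lowers the Ta side by itself. With Al replicate 6, the highest Al kidney, omitted as well, 0 were higher. The summed macrophage level was 136.9 to 658 CPM in Al kidneys and 167 to 923 CPM in Ta kidneys. Csf1r, the macrophage growth factor receptor, was at 12.4, 28.1 and 37.1 CPM in Al kidneys, against 21.3, 30.6 and 89.95 CPM in Ta kidneys. Csf1r had a log2 fold change of -0.67 ± 0.34 (adjusted p = 0.147), with 2 of 8 Al kidneys below every Ta kidney. Of 19 interferon targets 1 rose, Isg20 (0.72 ± 0.27; call lost when any of 8 single libraries was left out, adjusted p up to 0.163 without Al replicate 6), and 3 fell, among them Ifit2 (-1.38 ± 0.38, adjusted p = 0.00683) and Mx1 (-1.09 ± 0.40; call lost when any of 11 single libraries was left out, adjusted p up to 0.0869 without Al replicate 8), and 1 member was lower when Al replicate 5, 7 or 8 or Ta replicate 4, 5, 6 or 8 was left out. Of 24 complement and chemokine genes 3 fell, among them the stromal chemokine Cxcl12 (-0.93 ± 0.28, adjusted p = 0.013), with no overlap, and Cx3cl1 (-0.42 ± 0.14; call lost when any of 8 single libraries was left out, adjusted p up to 0.0735 without Al replicate 6). Of 16 antigen presentation genes Cd74 alone fell (-0.58 ± 0.21; call lost when any of 9 single libraries was left out, adjusted p up to 0.192 without Ta replicate 4). Of 14 cytochrome P450 genes, 9 red cell genes and 7 urothelium genes, 0 passed in edgeR's test, with 2, 0 and 0 at an unadjusted p under 0.05, and DESeq2 called 1 P450 gene higher and 1 lower. Of 8 adipocyte genes 1 rose (12.5%, against 12.8% of all tested genes), Adipoq (0.53 ± 0.19; call lost when any of 4 single libraries was left out, adjusted p up to 0.0779 without Al replicate 6).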
